A study of Mus musculus with 4 samples.

Results

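Axon guidance ligands and receptors were followed across the cell types of the mouse primary motor cortex and across sleep deprivation and vector-driven SIK3. The members are all genes of the feature table whose symbol carries one of the guidance family names: the semaphorins of classes 3 to 7, plexins, neuropilins, Eph A and Eph B receptors, ephrins, Robo, Slit, Unc5, Dcc, netrins and netrin-G. This gave 71 of the 32286 features. The largest families were the plexins and the Eph A receptors with 9 members each, followed by the class 3 semaphorins with 7 and the class 4 semaphorins with 6. A further 5 rows share the start of a family name but are other genes or antisense transcripts (Unc50, Unc5cl, Plxna4os1, Plxna4os2 and Plxna4os3) and were left out. Levels were read per cell type and library, and no member took part in the clustering that gave the types.

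All 4 libraries came from C57BL/6N mice, with 1 library per group: ad lib sleep with no sleep deprivation, sleep deprivation by gentle handling, and, in the same cortical region, local delivery of AAV8-hSyn-FLAG-SIK3(WT) or of AAV8-hSyn-FLAG-SIK3(Ex13del). SIK3 is a salt-inducible kinase, the vectors drive it from the neuronal synapsin promoter, and the submitters describe the mutant as gain-of-function. Their labels give neither the number of animals behind a library nor an empty-vector group. Nuclei were profiled with a 10x Chromium 3' kit (v3.1), and each level below is CPM, the UMIs of a gene scaled to 1000000 UMIs of all nuclei of that type in that library. With 1 library per group no difference has a replicate check. Intervals are exact 95% intervals for counting error alone, and the spread over the 4 libraries is the only view of variation between samples.

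Guidance proteins are secreted or membrane-bound cues that steer growing axons and migrating cells. Slits bind Robo receptors, netrins bind Dcc and the Unc5 receptors, semaphorins bind plexins, with neuropilins as co-receptors for most class 3 members, and ephrins bind Eph receptor tyrosine kinases and can signal back into the cell that carries them. In the adult cortex many of them stay expressed, and members of each system act on dendritic spines, synapses, myelinating cells and blood vessels. Netrin-G proteins are lipid-anchored relatives of the netrins that sit on axons and bind leucine-rich repeat partners at synapses.

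The libraries held 43655557 to 54070503 UMIs in 5944 to 9438 barcodes, of which 5311 to 8222 were kept as nuclei, and any pair of libraries shared 9 to 16 barcode sequences. The sleep deprivation library stood apart in depth: its excitatory nuclei had a median of 13824 UMIs, against 7418 (ad lib), 9168 (SIK3(WT)) and 10005 (SIK3(Ex13del)), and 30.2% of its nuclei were in no named class, against 9.61% to 13.7% elsewhere. Most of these unnamed nuclei formed a cluster of low depth led by Nefm, Nefl and Nrgn, with 1535 of its 3742 nuclei from that library. Clusters were named from markers and resemble, rather than prove, the types whose names they carry, so "excitatory neurons" stands for excitatory-like nuclei and so on. The dissections also held striatal projection neurons, with 299, 243, 213 and 417 nuclei. Values for the 4 libraries follow below in the order ad lib, sleep deprivation, SIK3(WT) and SIK3(Ex13del).

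Across 21 types, 57 of the 71 members reached a mean of 20 CPM in at least 1 type. The other members, among them Epha1, Efna2, Efna4, Sema3b, Sema3f and Ntn5, stayed under that level everywhere. A member was called restricted to a type where its lowest library level there was at least 2 times the highest library level of every other type. This held for 2 of the 57 members (3.51%), against a background of 7.42% over the 12770 genes at the same level. The order of these shares changed with the clustering: without centring by library 6 members were restricted (10.7%, all genes 6.22%), and at a finer resolution 6 (10.3%, all genes 8.72%). From lists of other genes of the pathway, 1 of 20 extracellular partners and 4 of 46 intracellular effectors were restricted.

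**Figure D1:**
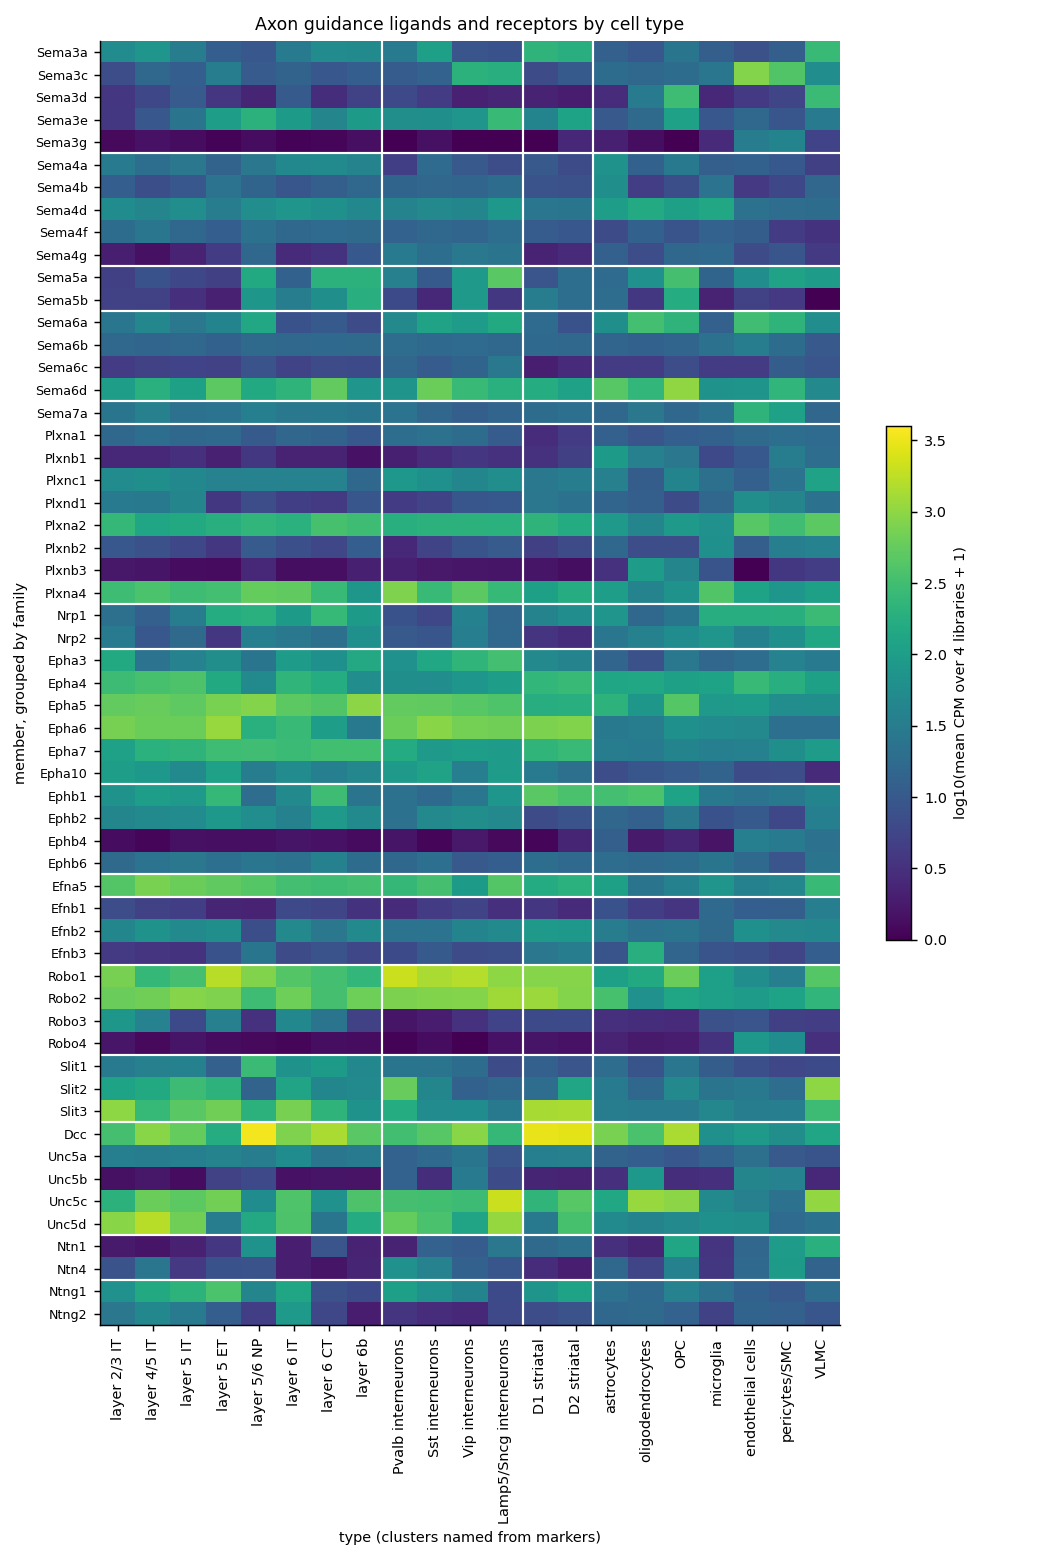
Heat map of log10(mean CPM over the 4 libraries + 1) for the 57 members that reach 20 CPM in a type (rows, grouped by family) in 21 types (columns; OPC, oligodendrocyte precursors; SMC, smooth muscle; VLMC, vascular leptomeningeal fibroblasts). Most rows are coloured in many types, as for Dcc and Robo1, which reach 20 CPM in all 21, while Efnb3 and Slit1 stand out in a single column each.

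Both restricted members are ligands. Efnb3, a transmembrane ephrin B (chromosome 11, 69554092 to 69560205, minus strand, mm10), was highest in oligodendrocytes at 209, 174, 148 and 184 CPM. Its next type, D2 striatal neurons, did not pass 39.4 CPM in any library, and Efnb3 in layer 5 intratelencephalic (IT) neurons lay between 2.04 and 2.97 CPM. Slit1 (chromosome 19, 41600257 to 41743665, minus strand) was highest in the near-projecting neurons of layers 5 and 6 at 288, 292, 253 and 294 CPM. The corticothalamic neurons of layer 6 came next for Slit1 with 76.6, 91.6, 97.2 and 94.5 CPM, and pericytes and smooth muscle were lowest at a mean of 4.91 CPM. By the rule itself, levels of a restricted member in its own type cannot overlap those of any other type. With each nucleus reduced to 1000 UMIs, Efnb3 alone was called.

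**Figure D2:**
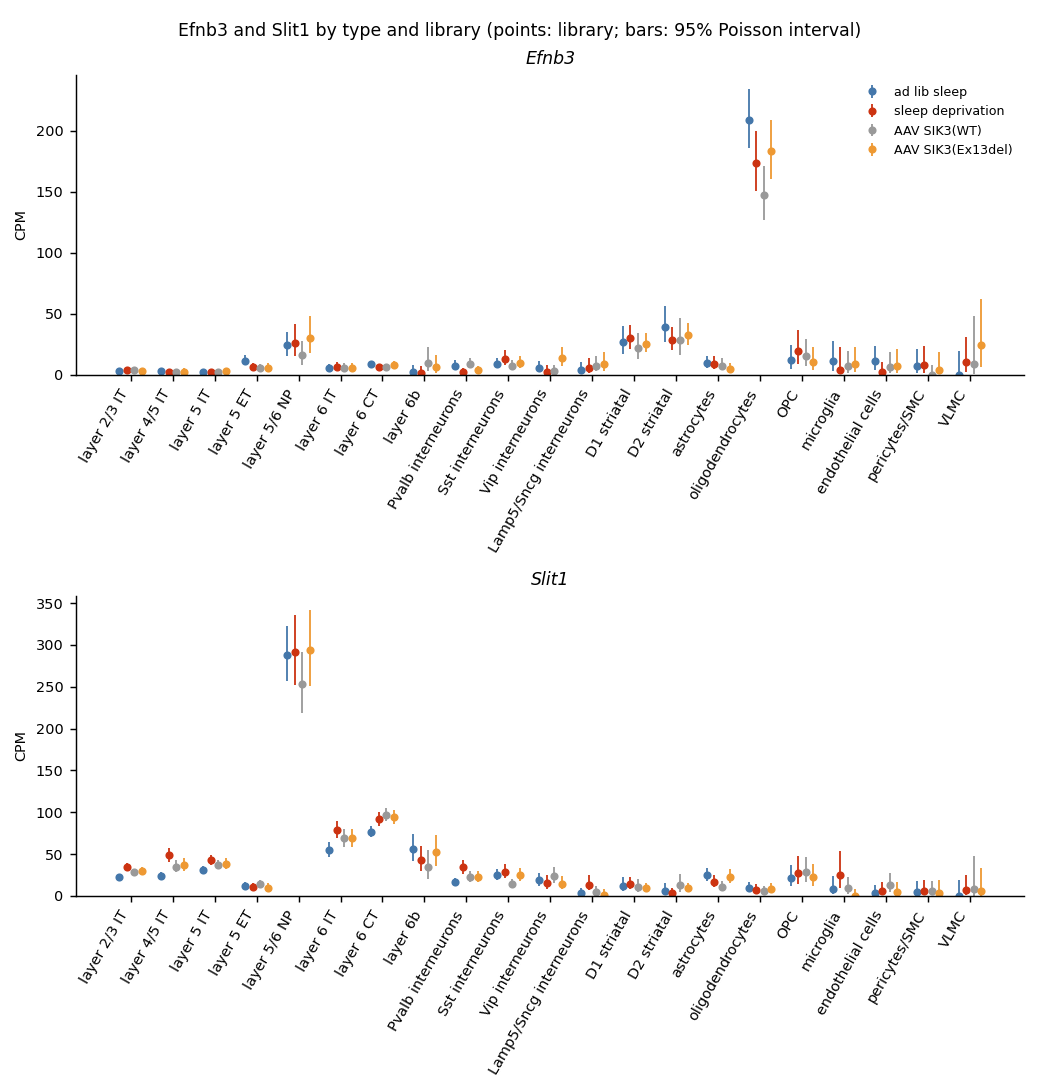
Levels of Efnb3 and Slit1 in CPM (vertical axis, starting at 0) by type; each point is a library and bars are 95% Poisson intervals. All 4 points of Efnb3 lie between 148 and 209 CPM in oligodendrocytes, and all 4 of Slit1 between 253 and 294 CPM in layer 5/6 near-projecting neurons.

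The other Slits, secreted ligands as well, were highest in other types. Slit2 was highest in vascular leptomeningeal fibroblasts, at 1581, 618, 937 and 729 CPM, from only 35 to 60 nuclei a library. Pvalb interneurons followed for Slit2 with 631, 463, 641 and 582 CPM, a range that overlaps the fibroblasts, and Vip interneurons were lowest with 4.08 to 18.9 CPM. Among excitatory subclasses Slit2 was highest in layer 5 IT neurons (325, 219, 304 and 319 CPM) and low in the near-projecting neurons where Slit1 was high (10.6 to 15.3 CPM). Slit3 was highest in D2 striatal neurons (1297, 1735, 1295 and 1316 CPM), overlapping D1 striatal neurons (1202 to 1633 CPM), and was between 8.27 and 50.8 CPM in Lamp5 and Sncg interneurons. Gm20475 overlaps Slit2 on the same strand, and reads from the overlap cannot be told apart. The same holds for Slit3 (Gm12122), Ephb1 (Gm29388), Ntn1 (Gm12305) and Ntng2 (6530402F18Rik).

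Among the Slit receptors, Robo1 was highest in Pvalb interneurons (1944, 2042, 2094 and 2069 CPM), above the 1490 to 1833 CPM of layer 5 extratelencephalic (ET) neurons in every library. Robo2 was highest in Lamp5 and Sncg interneurons at 1244, 1114, 1354 and 1180 CPM, a range that overlaps D1 striatal neurons at 864 to 1360 CPM. Robo3, a divergent Robo known from commissural axons, was highest in layer 2/3 IT neurons at 78.9, 108, 66.6 and 63.9 CPM, all above the 39.3 to 62.4 CPM of layer 6 IT neurons. Layer 4/5 IT (32.1 to 50.3 CPM) and layer 5 ET neurons (29.0 to 52.5 CPM) overlapped layer 6 IT, while layer 5 IT neurons held at most 8.14 CPM of Robo3 and Pvalb interneurons at most 1.03 CPM. Robo4, the Robo of vessels, was highest in endothelial cells (84.0, 88.2, 75.2 and 78.3 CPM), next in pericytes and smooth muscle (46.2 to 61.8 CPM) and listed at 0 in Vip interneurons of all libraries. The pericyte and smooth muscle type held the 7 endothelial markers at a summed 6374, 7380, 7440 and 6129 CPM. Its own 9 markers summed to 7071, 5519, 6472 and 6371 CPM. The part of endothelial transcripts in its levels, for Robo4 and the members below, was not tested. At the finer resolution Robo4, Sema3c and Sema7a were among the restricted members.

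Netrin receptors were found in neurons and glia. Dcc, the attractive netrin receptor, reached 20 CPM in all 21 types and was highest in near-projecting neurons (3162, 3539, 3501 and 3448 CPM), overlapping D1 striatal neurons at 2851 to 3244 CPM. Layer 2/3 IT neurons carried Dcc at 295 to 438 CPM. The Unc5 receptors, which turn netrin into a repellent cue, split by type. Unc5c was highest in Lamp5 and Sncg interneurons (1826, 1730, 2116 and 2557 CPM) and next in oligodendrocytes (905, 1187, 1225 and 1098 CPM). Unc5d was highest in layer 4/5 IT neurons at 1876, 1713, 1623 and 1346 CPM. Unc5b was highest in oligodendrocytes (65.7 to 100 CPM), with endothelial cells next (at most 53.6 CPM), and Unc5a in layer 6 IT neurons (52.7 to 57.3 CPM). Ntn1, a secreted netrin, was highest in leptomeningeal fibroblasts (175 to 223 CPM) and oligodendrocyte precursors (119 to 144 CPM), and did not pass 1.22 CPM in layer 4/5 IT neurons. Ntn4 was highest in pericytes and smooth muscle (59.1 to 138 CPM), where its range encloses the 65.6 to 66.3 CPM of Pvalb interneurons. Ntng1 was highest in layer 5 ET neurons at 428, 381, 356 and 358 CPM, and Ntng2 in layer 6 IT neurons at 67.1 to 100 CPM. Layer 6b neurons held little of either netrin-G, with Ntng1 at 1.11 to 13.8 CPM and Ntng2 at 0 to 2.51 CPM.

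Semaphorins had their highest levels in neurons, glia or vessels, depending on the member. Sema3c, a secreted class 3 member, was highest in endothelial cells (588, 932, 957 and 954 CPM) and next in pericytes and smooth muscle (275 to 525 CPM). Sema3e was highest in Lamp5 and Sncg interneurons (179 to 314 CPM), overlapping near-projecting neurons (173 to 267 CPM). Sema3d was highest in oligodendrocyte precursors (269 to 328 CPM), overlapping leptomeningeal fibroblasts (238 to 367 CPM). Sema3a was highest in those fibroblasts (199 to 344 CPM), with D1 striatal neurons overlapping (119 to 267 CPM). Several transmembrane members were highest in the oligodendrocyte lineage: Sema6d at 1008, 854, 1067 and 1059 CPM in precursors, and Sema4d at 156, 183, 131 and 157 CPM in oligodendrocytes. Sema6d reached 20 CPM in all 21 types. Sst interneurons (568 to 644 CPM), layer 6 corticothalamic neurons (523 to 559 CPM) and astrocytes (409 to 547 CPM) held more of it than mature oligodendrocytes (196 to 292 CPM). Sema4d overlapped microglia (126 to 163 CPM) and oligodendrocyte precursors (56.2 to 166 CPM) and reached 20 CPM in 19 types. Sema6a was also highest in oligodendrocytes, at 426, 281, 328 and 286 CPM, overlapping endothelial cells at 274 to 388 CPM. In astrocytes, Sema4a was at 62.2 to 75.1 CPM and Sema4b at 56.2 to 72.4 CPM, against a next type of at most 33.0 CPM for Sema4b. Sema7a, which is anchored by lipid, was highest in endothelial cells (177 to 254 CPM).

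The receptors of the semaphorins were likewise divided. Plxnb1, a receptor of class 4 semaphorins, was highest in astrocytes (84.8 to 103 CPM), 1.96 times the highest library of any other type and so just outside the rule. Plxnb3 was highest in oligodendrocytes (81.9 to 122 CPM) and next in their precursors (29.8 to 57.4 CPM), and was listed at 0 in all endothelial libraries. Plxna4, which works with neuropilins, was highest in Pvalb interneurons at 754, 909, 738 and 767 CPM. Plxnd1, a vascular plexin, was highest in endothelial cells (40.3 to 73.1 CPM), overlapping pericytes and smooth muscle (at most 55.9 CPM). Nrp1, which also binds vascular endothelial growth factor, was highest in leptomeningeal fibroblasts (223 to 394 CPM) and overlapped layer 6 corticothalamic neurons (202 to 299 CPM), while layer 2/3 IT neurons held 13.7 to 28.1 CPM of Nrp1. Nrp2 was highest in the same fibroblasts (124 to 168 CPM), above the 40.2 to 119 CPM of microglia.

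Of the Eph receptors that reached 20 CPM, all but Ephb4 were highest in a neuronal type. Epha6 was highest in layer 5 ET neurons (1067, 1048, 1116 and 1159 CPM), with no overlap with Sst interneurons (878 to 930 CPM). Epha5 was highest in layer 6b neurons (840 to 1085 CPM), overlapping near-projecting neurons (at most 944 CPM). Epha7 was highest in layer 6 corticothalamic neurons (278 to 391 CPM), overlapping layer 6b (281 to 342 CPM), near-projecting (264 to 364 CPM) and layer 5 ET neurons (275 to 344 CPM). Epha4 was highest in layer 5 IT neurons (358 to 429 CPM), overlapping layer 4/5 IT neurons (321 to 371 CPM). Epha3 was highest in Lamp5 and Sncg interneurons (281 to 408 CPM). Epha10, an Eph receptor whose kinase domain is held to be inactive, was highest in Sst interneurons at 117, 111, 115 and 128 CPM. Ephb1 was highest in D1 striatal neurons (391 to 529 CPM), overlapping oligodendrocytes (355 to 426 CPM). Ephb4, known from veins, was highest in endothelial cells (25.1 to 42.7 CPM), overlapping pericytes and smooth muscle (at most 37.6 CPM). Efna5, a lipid-anchored ephrin A, was at 705, 775, 797 and 768 CPM in layer 4/5 IT neurons and at a mean of at least 20 CPM in all 21 types. Efnb2 was highest in D1 striatal neurons (52.2 to 109 CPM), overlapping D2 striatal neurons (at most 93.9 CPM), and Efnb1 in leptomeningeal fibroblasts (31.1 to 36.1 CPM).

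The sleep deprivation library was compared with the ad lib library. Sleep loss and gentle handling cannot be told apart in this comparison, and the libraries also differed in depth. In excitatory neurons 37 members reached a mean of 20 CPM and 100 UMIs over both libraries, and differed little. A single member passed 1.5-fold: Slit2 was lower after sleep deprivation, and 0 members were higher. Over all 7000 genes at that level 1.37% were at least 1.5-fold higher and 1.73% lower, 3.1% in either direction. The median log2 ratio of the members was 0.00 and that of all genes -0.01, with 19 members above and 18 below an unchanged level.

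Slit2, the ligand with the largest difference here, lay at 166, 105, 143 and 169 CPM in excitatory neurons, so the sleep deprivation library was the lowest of the 4. Sleep deprivation over ad lib gave a ratio of 0.634 (95% interval 0.606 to 0.663), from 3043 and 5131 UMIs. Among the excitatory subclasses compared, the ratio was lowest in layer 2/3 IT neurons, where Slit2 was at 171, 65.6, 115 and 139 CPM, a ratio of 0.384 (0.346 to 0.425). It also passed 1.5-fold in layer 4/5 IT neurons (191, 109, 136 and 175 CPM, ratio 0.568) and in layer 6 IT neurons (146, 90.2, 118 and 155 CPM, ratio 0.616). In layer 5 IT neurons Slit2 was at 325, 219, 304 and 319 CPM, just inside the threshold, and in layer 6 corticothalamic neurons the 2 libraries were close, at 38.6 and 40.3 CPM. A separate clustering at a finer resolution, read after the values were seen, held 3 clusters named layer 2/3 IT. They took in 851 of the 860 ad lib and 461 of the 474 sleep deprivation nuclei of the type, and 46 ad lib nuclei and 23 sleep deprivation nuclei from outside it. Slit2 was lower after sleep deprivation in each: 210 against 67.8 CPM, 146 against 52.1 CPM and 152 against 65.9 CPM. With every nucleus reduced to 1000 UMIs the ratio of Slit2 in excitatory neurons was 0.766 (0.646 to 0.906), from 501 ad lib and 195 sleep deprivation UMIs, and no longer passed 1.5-fold.

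Receptors made up the members just short of the threshold on the high side. Robo3 was at 37.0, 55.0, 32.0 and 31.7 CPM, a ratio of sleep deprivation to ad lib of 1.49 (95% interval from 1.38), and the sleep deprivation library was the highest of the 4. Epha10 was at 59.9, 88.2, 65.3 and 71.3 CPM, a ratio of 1.47 (1.39 to 1.56), again with sleep deprivation highest. Nrp1 was at 79.0, 112, 99.4 and 105 CPM, a ratio of 1.41 (1.34 to 1.49), but here the ad lib library was the low one and both vector libraries lay near sleep deprivation. Ephb2 (1.27) followed, at 52.5, 67.0, 55.5 and 59.0 CPM. The nearest members on the low side after Slit2 were Ephb6 (0.852), Epha7 (0.860), Unc5d (0.882) and Robo2 (0.884), and Robo1, a Slit2 receptor, was at 0.987 (0.966 to 1.01). Scaling by TMM factors took Robo3 and Epha10 past 1.5-fold, and equal weight of the subclasses or reduction to 1000 UMIs took Nrp1 past it.

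**Figure D3:**
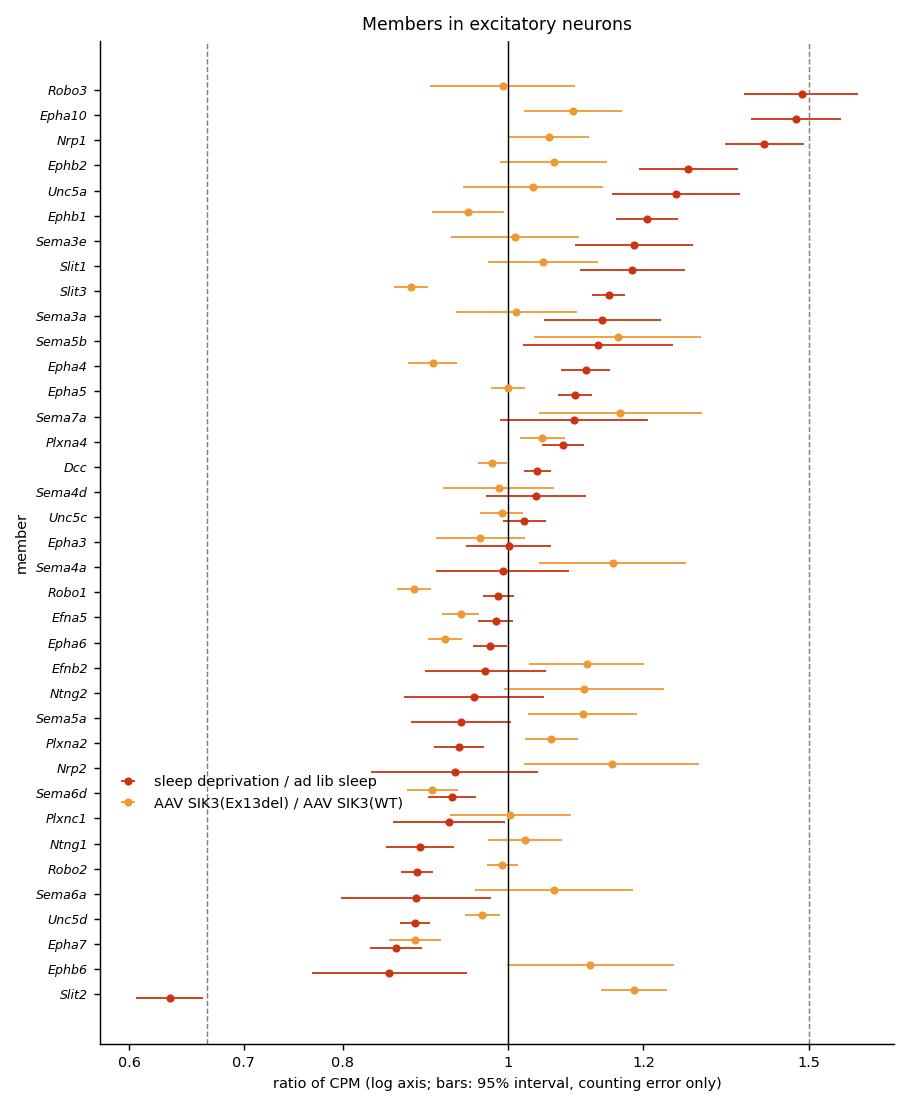
Ratio of CPM in excitatory neurons (horizontal log axis) for each member at 20 CPM and 100 UMIs, sorted by the ratio of sleep deprivation to ad lib sleep, with the ratio of SIK3(Ex13del) to SIK3(WT) beside it; bars are 95% intervals for counting error and dashed lines mark 1.5-fold. Slit2 at 0.634 is the only point past a dashed line, and the Ex13del points lie between 0.877 (Slit3) and 1.19 (Slit2).

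By subclass, 4 of 34 members passed 1.5-fold in layer 2/3 IT neurons (background 6.62%), 3 of 36 in layer 4/5 IT (5.78%), 4 of 34 in layer 5 IT (5.25%), 4 of 32 in layer 5 ET (6.25%), 4 of 34 in layer 6 IT (7.44%) and 1 of 33 in layer 6 corticothalamic neurons (2.99%). Epha10 and Nrp1 passed in 3 of the 4 IT types, layer 4/5 being the exception: Epha10 was at 83.0, 88.6, 85.1 and 74.3 CPM there, and Nrp1 was under the floor at 9.74 to 16.5 CPM. Epha10 passed 1.5-fold in layer 2/3 IT neurons (85.9, 134, 88.1 and 91.1 CPM, ratio 1.56), layer 5 IT neurons (43.3, 67.3, 52.1 and 46.7 CPM, ratio 1.55) and layer 6 IT neurons (44.7, 71.9, 45.8 and 51.8 CPM, ratio 1.61), with sleep deprivation highest each time. After reduction to 1000 UMIs per nucleus, which leaves fewer UMIs, the log2 ratio of Epha10 in layer 5 IT neurons was -0.04. Nrp1 passed it in layer 2/3 IT neurons (14.1, 28.1, 13.7 and 24.5 CPM, ratio 1.99), layer 5 IT neurons (24.8, 37.6, 32.5 and 32.1 CPM, ratio 1.52) and layer 6 IT neurons (68.3, 114, 79.4 and 105 CPM, ratio 1.66). Robo3 passed it in layer 5 ET neurons at 33.0, 52.5, 31.3 and 29.0 CPM (ratio 1.59). Slit1 was higher in layer 2/3 IT neurons (22.1, 34.9, 28.5 and 29.6 CPM, ratio 1.57) and layer 4/5 IT neurons (23.3, 48.4, 35.0 and 36.5 CPM, ratio 2.08), so in layers 2/3 and 4/5 Slit1 and Slit2 differed in opposite directions. Ephb1 in layer 4/5 IT neurons was at 78.3, 133, 96.3 and 107 CPM (ratio 1.70), and Unc5d was higher in layer 5 ET neurons (27.6, 51.1, 23.5 and 26.9 CPM, ratio 1.85) but lower in layer 6 corticothalamic neurons (27.9, 12.9, 19.8 and 35.9 CPM, ratio 0.461). With doublets kept, the log2 ratio of Unc5d in layer 5 ET neurons was -0.01, against 0.89 without them.

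**Figure D4:**
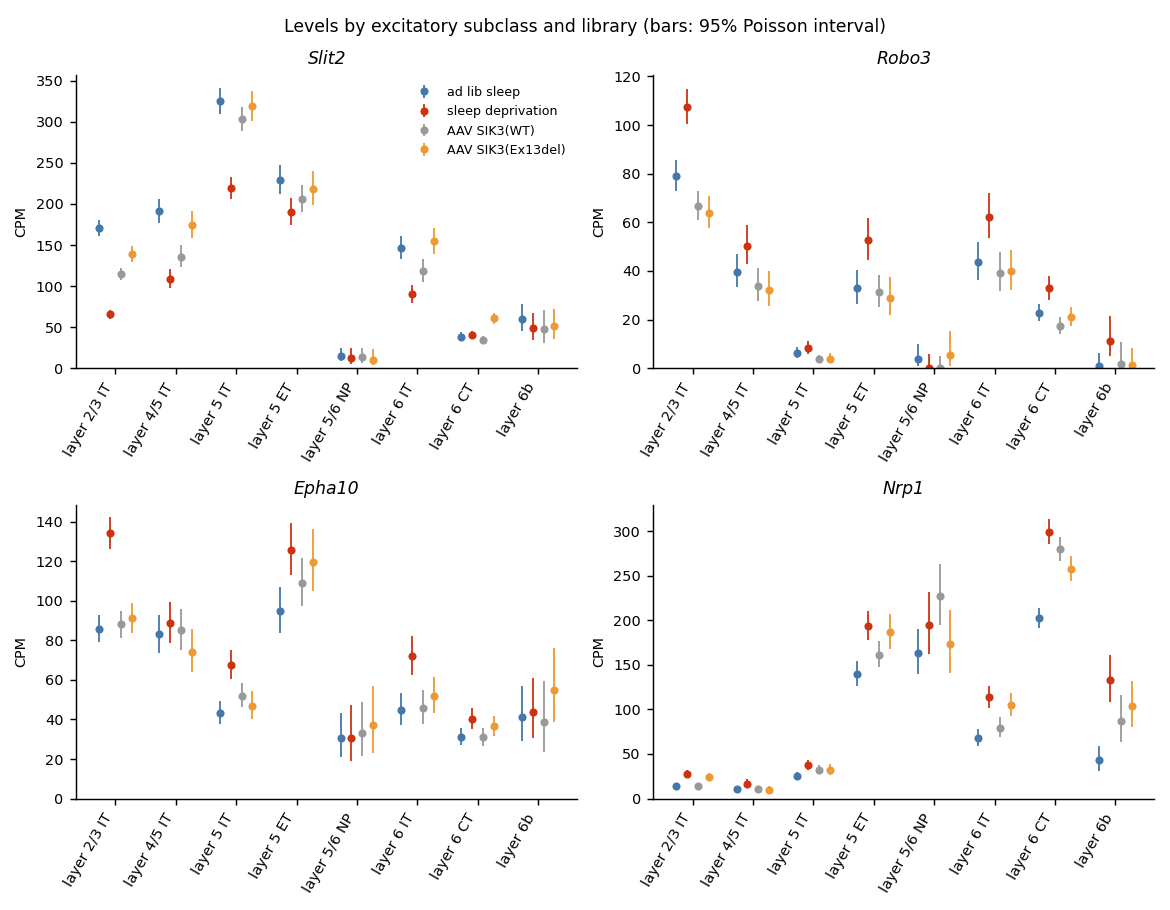
Levels in CPM (vertical axis) of Slit2, Robo3, Epha10 and Nrp1, the members with the largest excitatory differences after sleep deprivation, by excitatory subclass (horizontal axis); each point is a library and bars are 95% Poisson intervals. In layer 2/3 IT neurons the sleep deprivation point of Slit2 is the lowest, at 65.6 CPM, and that of Epha10 the highest, at 134 CPM.

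For these members the bases before the start site are shown where RefSeq (GRCm38.p6) holds them, so that the promoters behind the largest excitatory differences can be read. Each run ends before the first annotated exon base of its window, and Epha10 is named only. The capitals mark the letters GGGCGG, or its reverse complement, known as a GC box and bound by SP family factors. The Slit2 run is chr5:47982905-47983137 (plus strand), directly before the gene, the Robo3 run chr9:37433247-37433425 (minus strand), and the Nrp1 run chr8:128358823-128359072 (plus strand), which lies inside the longer gene span of GENCODE.
Slit2: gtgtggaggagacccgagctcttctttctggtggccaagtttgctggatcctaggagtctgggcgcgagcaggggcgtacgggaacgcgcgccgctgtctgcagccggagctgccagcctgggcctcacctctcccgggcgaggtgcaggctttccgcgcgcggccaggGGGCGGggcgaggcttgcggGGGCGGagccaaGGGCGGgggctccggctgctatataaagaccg
Robo3: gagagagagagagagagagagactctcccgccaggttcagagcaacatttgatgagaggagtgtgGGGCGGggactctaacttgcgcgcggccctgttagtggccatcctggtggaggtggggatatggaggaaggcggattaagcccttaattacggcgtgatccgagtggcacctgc
Nrp1: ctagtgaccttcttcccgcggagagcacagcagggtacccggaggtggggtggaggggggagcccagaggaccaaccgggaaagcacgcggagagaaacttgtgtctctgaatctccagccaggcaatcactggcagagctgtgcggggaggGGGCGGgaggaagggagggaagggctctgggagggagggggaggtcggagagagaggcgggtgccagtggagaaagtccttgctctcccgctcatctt
The Slit2 run held 3 GC boxes and the Robo3 and Nrp1 runs 1 each. On both strands, none of the runs held the cAMP response element TGACGTCA, its half-site TGACG (which the full element contains), the E-box CACGTG, the AP-1 site TGANTCA or the palindromic glucocorticoid response element. Of the 61 members with a RefSeq promoter, 44 held a GC box (72.1%), against 32.9% of 27025 promoters of the same length. The cAMP response element was in 1 of 61 (1.62% of all promoters), the half-site in 7 (17.9%), the E-box in 3 (6.05%), the AP-1 site in 2 (6.87%) and the glucocorticoid element in 0 (0.381%). A match describes letters only.

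The lists of other genes of the pathway were read in excitatory neurons as well, after sleep deprivation against ad lib sleep. Of all genes there, 1.37% were at least 1.5-fold higher and 1.73% lower. Each list had 1 gene past 1.5-fold, which is too few to rank the lists against these shares. Of 16 extracellular partners at the same level 1 was higher and 0 were lower. That partner was Dscaml1, a homophilic adhesion molecule of the DSCAM family, at 348 CPM against 197 CPM (ratio 1.77, 1.71 to 1.83). Of 37 intracellular effectors 1 was higher and 0 lower: Mical2, an actin-oxidising enzyme of the family that acts below plexins, at 417 against 237 CPM (ratio 1.76, 1.71 to 1.81). In the SIK3(WT) library Mical2 was at 314 CPM and Dscaml1 at 231 CPM, so for both the ad lib library lay below this one as well. The lowest partner was Flrt2 (0.804), a ligand of Unc5 receptors, and the lowest effector Tiam1 (0.736), an activator of Rac. The median log2 ratio was -0.03 for the partners and 0.05 for the effectors.

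Counted type by type, 12 types had at least 100 nuclei in both libraries, of which 6 are the excitatory subclasses above. Over these types 324 pairs of member and type were at the same level, of which 22 were at least 1.5-fold higher and 18 lower after sleep deprivation, 12.3% in all, for 19 members. Over all genes the share was 6.73%. With every nucleus reduced to 1000 UMIs fewer pairs kept 100 UMIs, and the share was 7 of 135 pairs for the members (5.19%) and 10.1% for all genes, so the order of the shares was not the same in this setting.

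Striatal projection neurons held the highest ratio, that of Sema5b, with 6 members higher and 4 lower of 30 as a class, where 11.0% of all genes passed either way. Sema5b was at 16.3, 67.0, 31.0 and 31.6 CPM (ratio 4.11, 2.81 to 6.22), with sleep deprivation well above the other 3 libraries. Nrp1 was at 27.3, 76.0, 42.6 and 52.9 CPM (ratio 2.78) and Ntng1 at 74.7, 205, 69.8 and 74.0 CPM (ratio 2.74). The other higher members were Sema3e (127 against 63.6 CPM), Epha10 (ratio 1.84) and Plxna2 (ratio 1.53). The lower ones were Sema3a at 236, 127, 225 and 202 CPM (ratio 0.539), Plxnd1 (0.613), Slit2 (0.621) and Efnb2 at 85.7, 55.3, 95.6 and 92.7 CPM (0.645). Ntng1 was high in both kinds of striatal neuron, at 224 CPM in D2 and 152 CPM in D1 neurons after sleep deprivation, against 85.2 to 92.5 CPM and 39.4 to 52.7 CPM in the other libraries. These types were small, with 93 D1 and 115 D2 nuclei after sleep deprivation.

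Among interneurons, the Pvalb type had 2 of 28 members higher and 3 lower (background 6.4% either way). Sema6d was at 89.5, 40.1, 90.4 and 71.1 CPM (ratio 0.448) and Sema6a at 53.5, 30.9, 58.6 and 53.8 CPM (ratio 0.576), the sleep deprivation library lowest for both. Ntng1 in these neurons was at 83.6, 149, 92.1 and 109 CPM (ratio 1.78) and Slit1 at 16.0, 33.9, 22.8 and 22.2 CPM (ratio 2.12), with sleep deprivation highest for both. Sema3e was at 73.8, 45.8, 68.0 and 49.9 CPM (ratio 0.620). In Sst interneurons Slit2 alone of 25 members passed (background 5.06% either way), at 25.6, 39.3, 46.1 and 65.7 CPM, from 54 and 60 UMIs in the ad lib and sleep deprivation libraries, and with the ad lib library lowest. After reduction to 1000 UMIs per nucleus, which leaves still fewer UMIs, this log2 ratio of Slit2 was -0.52.

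In astrocytes 0 of 21 members were higher and 3 lower (background 9.13% either way), and the median log2 ratio of the members was -0.35 against -0.03 for all genes. The type took in a cluster whose leading genes included Thbs4, Igfbpl1, Top2a, Pax6 and Gfap, with 125 ad lib and 72 sleep deprivation nuclei. No astrocyte ratio was read without that cluster. Unc5c was at 173, 71.0, 149 and 179 CPM (ratio 0.411, 0.324 to 0.519), and Ephb1 at 358, 233, 391 and 339 CPM (ratio 0.650), with sleep deprivation alone low for each. In the finer clustering 2 clusters were named astrocytes and held only 438 of the 668 ad lib and 248 of the 332 sleep deprivation nuclei of the type. Unc5c was lower after sleep deprivation in both (569 against 99.4 CPM and 138 against 62.8 CPM), as was Ephb1 (361 against 281 CPM and 396 against 252 CPM). Epha6 was at 40.7, 27.1, 26.9 and 16.5 CPM (ratio 0.665), with a 95% interval that reaches past an equal level, where it was the ad lib library that lay above the others, and with doublets kept its log2 ratio was 0.51. The summed level of the 6 striatal neuron markers in astrocytes was 192, 540, 174 and 235 CPM, and that of the 7 excitatory markers 1294, 1555, 1489 and 1262 CPM, with 0 markers of either list absent from all libraries. Their part in these values was not tested.

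In oligodendrocytes 0 of 17 members were higher and 2 lower (background 9.91% either way), with a median log2 ratio of -0.21 for the members and -0.03 for all genes. Robo2 was at 86.9, 46.7, 70.8 and 55.1 CPM (ratio 0.537) and Sema6a at 426, 281, 328 and 286 CPM (ratio 0.660), and for both the ad lib library was the highest of the 4. The summed level of the 7 astrocyte markers in oligodendrocytes was 856, 1303, 1066 and 805 CPM, highest after sleep deprivation, with 0 markers absent from all libraries. Their part in these values was not tested. In endothelial cells 2 of 9 members were higher and 2 lower (background 11.2% either way). Plxna2 was at 263, 445, 524 and 584 CPM (ratio 1.69) and Sema3c at 588, 932, 957 and 954 CPM (ratio 1.58), so the ad lib library was low and the other 3 lay together. Plxna4 was at 132, 78.8, 150 and 128 CPM (ratio 0.596) and Robo2 at 116, 76.9, 81.5 and 102 CPM (ratio 0.662, 0.436 to 0.994), and this log2 ratio of Robo2 was 0.08 after reduction to 1000 UMIs per nucleus. The UMIs behind these endothelial values were few, with 42 for Plxna4 and 41 for Robo2 after sleep deprivation. The summed level of the 9 pericyte and smooth muscle markers in endothelial cells was 1303, 778, 1162 and 1099 CPM, lowest after sleep deprivation, and that of the 7 excitatory markers 1884, 2635, 2459 and 2256 CPM, lowest in ad lib sleep. All of these markers had UMIs in at least 1 library, and their part in the endothelial values was not tested.

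**Figure D5:**
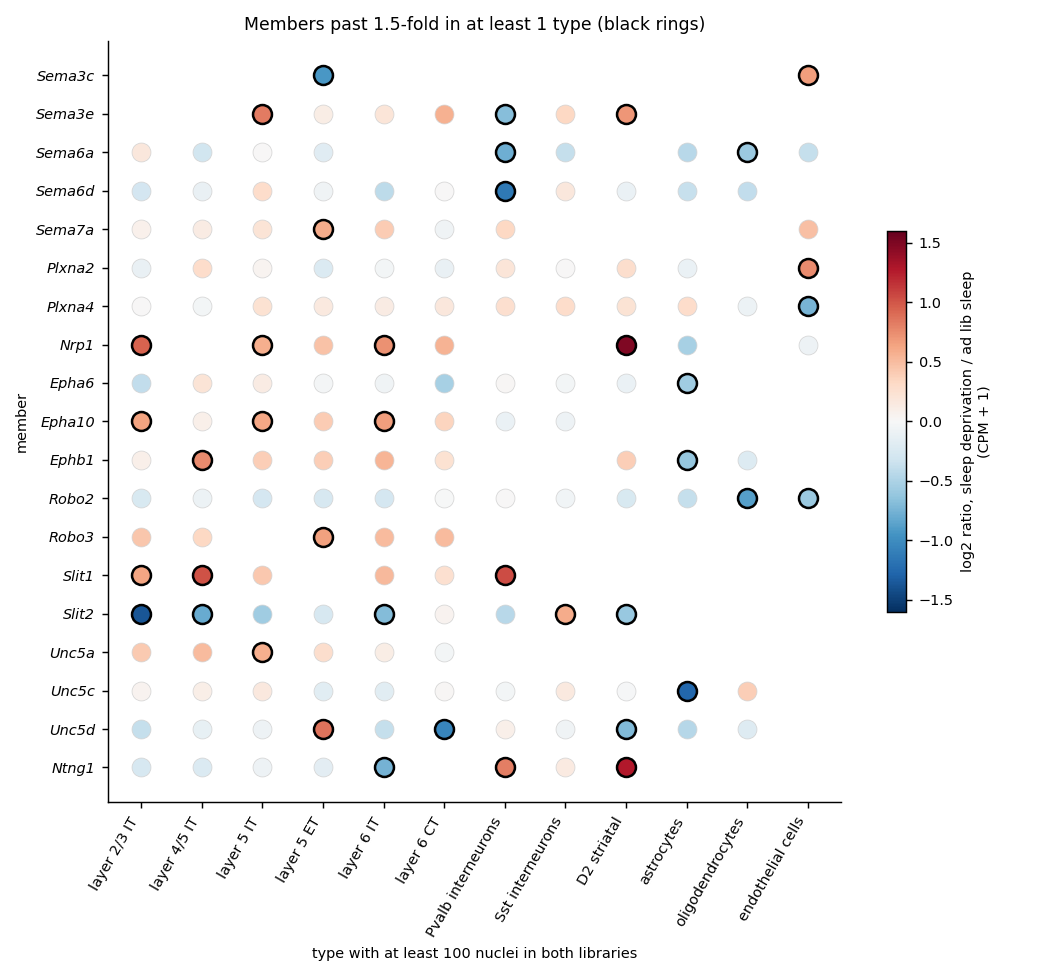
Log2 ratio (CPM + 1) of sleep deprivation to ad lib sleep, shown by colour, for the members past 1.5-fold in at least 1 type (vertical axis) in the types with at least 100 nuclei in both libraries (horizontal axis); black rings mark ratios past 1.5-fold. Rings of both colours occur in the rows of Slit2, Ntng1, Unc5d, Sema3c, Sema3e and Ephb1. Astrocytes, oligodendrocytes and layer 6 corticothalamic neurons hold lower rings only.

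The 2 vector libraries ask whether the exon 13 deletion alters the genes beyond wild-type SIK3. In excitatory neurons 0 of 37 members passed 1.5-fold, against a background of 0.257% higher and 0.0286% lower. Slit2 was the highest member (1.19, 1.13 to 1.24), with 143 CPM in the SIK3(WT) and 169 CPM in the SIK3(Ex13del) library. The lowest were Slit3 (0.877, 0.857 to 0.898), at 594 against 522 CPM, and Robo1 (0.880), at 598 against 526 CPM. The median log2 ratio was 0.02 for the members and 0.02 for all genes, and 0 of the partners and 0 of the effectors passed. A cluster of 139 excitatory nuclei led by the vector feature drew 79.1% of its nuclei from the SIK3(Ex13del) library and was part of the class, and without it the log2 ratio of Slit2 was 0.13, against 0.24 with it.

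Over 14 other types with enough nuclei, 10 of 332 pairs of member and type passed (3.01%, background 2.37%), 8 higher and 2 lower in SIK3(Ex13del). The share was 6.12% with doublets kept (all genes 2.54%), 4.91% without centring (2.91%) and 5.88% with finer clusters (2.42%). With at least 1000 detected genes it was 4.23% (2.35%), and after thinning to 1000 UMIs 1.48% (3.31%). The order of the shares was thus not the same in all settings. In layer 5 IT neurons Sema6a was at 25.2, 25.2, 18.3 and 35.9 CPM (ratio 1.96) and Ntng1 at 198, 187, 179 and 275 CPM (ratio 1.54), with the SIK3(Ex13del) library above the other 3 in both. Layer 6 corticothalamic neurons had higher Slit2, at 38.6, 40.3, 33.9 and 60.7 CPM (ratio 1.79), and higher Unc5d (ratio 1.81). The finer clustering held 4 clusters named layer 6 corticothalamic, with 661 of the 671 SIK3(WT) and 552 of the 559 SIK3(Ex13del) nuclei of the type. In the 3 larger ones the SIK3(WT) and SIK3(Ex13del) levels of Slit2 were 24.4 and 66.6, 50.7 and 69.1, and 13.1 and 49.9 CPM, and those of Unc5d 18.3 and 41.4, 22.0 and 47.8, and 18.5 and 24.5 CPM. In oligodendrocytes Robo1 was at 128, 137, 124 and 216 CPM (ratio 1.75) and Unc5b at 87.7, 72.7, 65.7 and 100 CPM (ratio 1.53). Astrocytes had higher Plxna4, at 92.3, 113, 73.5 and 125 CPM (ratio 1.70), and higher Sema6a (1.61). With doublets kept, the log2 ratio of Plxna4 in astrocytes was -0.21, against 0.77 without them. The lower pairs were Epha3 in layer 4/5 IT neurons (0.579) and Slit3 in Vip interneurons (0.518). 

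Wild-type SIK3 vector and ad lib sleep were set side by side. Vector delivery, vector-driven SIK3 and library cannot be told apart in this comparison, so it cannot show whether the ad lib library lay apart. In excitatory neurons 0 of 38 members passed 1.5-fold (background 0.286% either way), and the median log2 ratio was 0.03 against 0.00 for all genes. The highest members were Nrp1 at 1.26 (1.19 to 1.33) and Epha4 at 1.24, and the lowest Ntng2 at 0.811 and Unc5d at 0.843. Slit2 was at 0.861 (0.826 to 0.897) and Robo3 at 0.864. This comparison shares the ad lib library with that of sleep deprivation, so both can carry the same deviation of that library.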

How the data were processed

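The deposited matrices are raw UMI counts of genes in single nuclei. The submitters' processing notes name Cell Ranger 6.1.2 and mm10 for them. Values are not normalized, and whether intronic reads were counted is not given in the sources used here. Coordinates are GENCODE vM21 (mm10) and 1-based. Barcodes needed 500.0 detected genes or more and a mitochondrial share of UMIs below 5%. The automatic doublet threshold of scanpy 1.11.5 called 0 to 2 nuclei per library, so the predicted share (0.8% per 1000 barcodes) was called instead. Leiden clustering (2000 variable genes, 30 components, 15 neighbours, resolution 1, centred by library) left out the members and the partner and effector lists. Clusters were named from markers; naming thresholds and doublet treatment were set after the data were seen. The members, lists and markers were chosen with earlier results of these data known.

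UMIs were summed per type and library and scaled to CPM, with exact Poisson intervals, and ratios carry exact conditional intervals; both cover counting error only. A ratio was called at 1.5-fold, a mean of 20 CPM and 100 UMIs, in types with 100 nuclei in both libraries. Medians use log2 (CPM + 1) ratios. The rule for named genes took the 2 most type-specific members per type, the 5 highest and 5 lowest ratios per comparison in excitatory neurons, the highest and lowest in each other type, the highest of each family in excitatory neurons, and the 2 highest and 2 lowest partners and effectors. Members past 1.5-fold elsewhere were named after their values were seen. Settings tried were doublets kept, 1000 genes, no centring, finer clusters, a floor of 5 CPM, TMM factors (edgeR 4.0.16), thinning to 1000 UMIs (which left out 452 to 899 nuclei per library), per-nucleus means, equal subclass weight, other folds and leaving out each library. Scripts were tested on simulated data.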

Additional observations from a re-analysis of the deposited data

Results flagged for a closer look

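The ratio of sleep deprivation to ad lib sleep passed 1.5-fold in opposite directions in different types for 6 members, and none of these differences between types was tested. Slit2 was lower in layer 2/3 IT neurons (0.384) and higher in Sst interneurons (1.53), the latter from few UMIs. Reduction to 1000 UMIs per nucleus, which leaves still fewer, turned the log2 ratio in Sst interneurons to -0.52. Ntng1 was lower in layer 6 IT neurons (0.591) and higher in D2 striatal neurons (2.46). Unc5d was lower in layer 6 corticothalamic neurons (0.461) and higher in layer 5 ET neurons (1.85), where the log2 ratio was -0.01 with doublets kept. Sema3c was lower in layer 5 ET neurons (0.508) and higher in endothelial cells (1.58). Sema3e was lower in Pvalb interneurons (0.620) and higher in layer 5 IT neurons (1.83). Ephb1 was lower in astrocytes (0.650) and higher in layer 4/5 IT neurons (1.70). Each ratio compares 1 library with 1 library.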

How the results depend on the processing

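No paired analysis was possible because each group has 1 library and no test was made. Sign changes were counted only for ratios called past 1.5-fold, and those of other ratios were only sorted as within or outside the interval. Of 732 values of 92 single ratios under the other settings, 626 stayed within the counting interval, 100 left it and 6 changed sign. The latter were log2 ratios of -0.04 for Epha10 in layer 5 IT neurons, -0.52 for Slit2 in Sst interneurons and 0.08 for Robo2 in endothelial cells after thinning, and of -0.01 for Unc5d in layer 5 ET neurons, 0.51 for Epha6 in astrocytes and, for Ex13del against WT, -0.21 for Plxna4 in astrocytes with doublets kept. Thinning alone gave 43 of the values that left the interval and 3 of the sign changes. The interval came from the full counts, and thinned values rest on fewer UMIs. The 2 restricted members were 4 with 1000 genes, 6 without centring, 6 with finer clusters, 1 after thinning, 4 at 1.5-fold and 1 at 3-fold, and 2 to 4 when a library was left out, with Sema4b and Plxnb3 added without sleep deprivation. The single excitatory member after sleep deprivation became 2 at 5 CPM, 3 with TMM factors, 2 with equal weights and 6 at the lower fold; after thinning it was 1 again, Nrp1 in place of Slit2. Partners were 2 at 5 CPM, and effectors 2 after thinning and 5 at the lower fold. In the other types and classes the 52 calls became 10 after thinning, where fewer genes reach 100 UMIs. For Ex13del against WT, excitatory members were 1 at 5 CPM, partners 1 after thinning and effectors 1 at the lower fold. The 10 calls in the other types and classes became 24 with doublets kept, 16 without centring, 19 with finer clusters and 3 after thinning. For the types alone, the shares of members and of all genes in these settings stand with the Ex13del values above. For WT against ad lib, members were 1 and effectors 2 at the lower fold, and partners 1 after thinning. Apart from the fewer genes at 100 UMIs after thinning, the cause was not tested. The settings without the vector-rich cluster, with the low-depth cluster counted as excitatory and without the progenitor-led astrocytes were added after seeing the data. The last was applied to the rule for restricted members only, not to the ratios.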
